A study of Homo sapiens with 24 samples.

Results

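The genes described here are INHBE, which encodes the inhibin beta E chain of the secreted growth factor activin E, and 9 genes of the stress response run by the transcription factor ATF4, namely ATF4 itself, DDIT3, ATF3, TRIB3, CHAC1, ASNS, PSAT1, SESN2 and PCK2. INHBE was chosen because its level differed between the SF3B2 and eGFP plasmids in HEK293T cells. The other 9 genes were chosen as known members of the pathway, at a time when earlier results of these data were known. These 10 symbols were matched to Ensembl gene IDs of a table of 60236 genes. SESN2 and PCK2 are not analysed here, which left 8 measured genes, and all 8 passed the filter on low counts in each of the 12 comparisons made.

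RNA-seq was performed on HEK293T cells, a line from human embryonic kidney grown in DMEM, and on A549 cells, a line from human lung adenocarcinoma grown in F-12K. Cells of each line were transfected with 1 of 4 plasmids using Lipofectamine and collected 48 h later. The snaR-A plasmid expressed a small noncoding RNA that RNA polymerase III transcribes, and the scramble plasmid a shuffled form of it, both from a U6 promoter. The eGFP and SF3B2 plasmids expressed a green fluorescent protein and a subunit of the U2 splicing particle, both with a FLAG tag from a pcDNA vector. These 8 groups of line and plasmid had 3 biological replicates each, and the 24 libraries, made with a stranded kit from RNA enriched for poly(A) tails, held between 195185935 and 260878271 estimated counts. The comparison of snaR-A with scramble asked what the small RNA changed, and that of SF3B2 with eGFP what the splicing protein changed. A comparison of eGFP or SF3B2 with scramble also compared the vectors, and the effects of vector and insert cannot be told apart. Likewise, line and medium cannot be told apart in the comparison of HEK293T with A549. In RNA from whole cultures, a lower level may mean fewer cells that express a gene or less RNA per cell, and these cannot be told apart.

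Levels are given in CPM, the count of a gene scaled to the size of its library with factors set over all 24 libraries, and always in the order of replicates 1, 2 and 3. Fold changes are on the log2 scale with their standard error (SE), and a gene was called changed when the adjusted p of edgeR's quasi-likelihood test was under 0.05. A p-value here measures the spread between these libraries. An exact permutation test of 3 libraries against 3 cannot go below 0.1, so none is given.

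Several libraries stood apart from their groups. Over 12 genes that mark A549 cells, the summed level was 28.1 to 51.9 CPM in 11 of the 12 HEK293T libraries and 18935 to 20456 CPM in the A549 libraries, but 773 CPM in replicate 3 of HEK293T with eGFP. At most 2 of these 12 genes were at 0 in any HEK293T library. AKR1B10, the aldo-keto reductase that A549 cells express strongly, stood at 99.7 CPM in that eGFP replicate and at 4.76 CPM in replicate 3 of HEK293T with SF3B2, against 0.237 and 0.308 CPM in the other SF3B2 replicates. Genes that mark HEK293T cells summed to 786.5 to 1201 CPM in HEK293T libraries and to 384 to 430 CPM in A549 libraries. Within HEK293T they summed to 1098 to 1201 CPM with scramble and to 786.5 to 932.4 CPM with the other plasmids. The part of this difference in the comparisons with scramble was not tested. SF3B2 itself stood at 24022 to 48705 CPM in the 6 libraries with its plasmid and at 294 to 371 CPM elsewhere, except for 8743 CPM in replicate 3 of A549 with scramble. The labels of replicate 3 of A549 with snaR-A disagreed on the cell line, and its markers were at the level of A549. The part of these libraries in each result was not tested, and values without them are given where a result rests on them.

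When amino acids run short, when unfolded proteins collect in the endoplasmic reticulum or when double-stranded RNA is sensed, kinases phosphorylate the initiation factor eIF2, which slows protein synthesis but raises translation of the ATF4 mRNA. ATF4 protein then activates genes of amino acid synthesis and transport together with further regulators, among them DDIT3 (also called CHOP), ATF3 and TRIB3. INHBE is mainly known as a liver gene that rises with this stress response.

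ATF4 and CHOP often bind a composite element, and its letters were searched in the promoters of RefSeq for GRCh38.p14. The motif TGATGNAA, read on either strand as TGATGNAA or TTNCATCA, occurred in the 250 bases before the start of 1061 of 27305 genes (3.89%). INHBE had no entry, so its promoter was not searched, whereas SESN2 and PCK2 had one. The motif occurred in 3 of the 9 listed genes that had an entry, which were ATF3, ASNS and CHAC1, and in 10 of 70 other genes of the pathway (14.3%). The stretches of 30 bases that hold it are shown because these 3 genes moved in different directions in the results that follow, with the motif in capitals.
ATF3, chr1:212565205-212565234, plus strand: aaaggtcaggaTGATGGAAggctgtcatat
ASNS, chr7:97872458-97872487, minus strand: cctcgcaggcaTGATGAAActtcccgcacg
CHAC1, chr15:40953251-40953280, plus strand: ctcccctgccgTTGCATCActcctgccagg
The match in ATF3 began 191 bases before the RefSeq start of the gene, that in ASNS 68 bases before and that in CHAC1 209 bases before. The stretches of ASNS and CHAC1 lay within exons of these genes in the GENCODE annotation, and that of ATF3 lay outside any exon. Such a match describes letters only and was not tested for binding.

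INHBE lies at chr12:57452323-57459280 of GRCh38 on the plus strand, and DDIT3 at chr12:57516588-57521737 on the minus strand, so the first base of DDIT3 is 69.4 kb from that of INHBE. ATF4 lies at chr22:39519695-39522683, TRIB3 at chr20:362835-397559, CHAC1 at chr15:40952962-40956512, ATF3 at chr1:212565334-212620777 and PSAT1 at chr9:78297125-78330093, all on the plus strand. ASNS lies at chr7:97851677-97872542 on the minus strand.

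In HEK293T the level of INHBE was 3.10, 2.74 and 2.74 CPM with scramble, 6.41, 7.71 and 6.29 CPM with snaR-A, 11.5, 13.6 and 10.4 CPM with eGFP, and 2.46, 2.53 and 3.49 CPM with SF3B2. The 3 snaR-A libraries lay above every scramble and SF3B2 library and below every eGFP library, while the scramble and SF3B2 libraries overlapped. These levels rested on 559 to 3547 estimated counts per HEK293T library. In A549 the level was 0.949, 1.44 and 1.38 CPM with scramble, 1.16, 1.03 and 1.21 CPM with snaR-A, 1.23, 1.63 and 1.06 CPM with eGFP, and 1.39, 1.77 and 1.07 CPM with SF3B2. All 12 A549 libraries lay below every HEK293T library, with 180 to 359 estimated counts each, and no A549 group stood clear of another. In the order of group means, HEK293T with eGFP (11.8 ± 1.62 CPM, SD, n = 3) was followed by snaR-A (6.80 ± 0.788 CPM), scramble (2.86 ± 0.209 CPM) and SF3B2 (2.83 ± 0.577 CPM), and then by the A549 groups at 1.13 to 1.41 CPM.

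**Figure D1:**
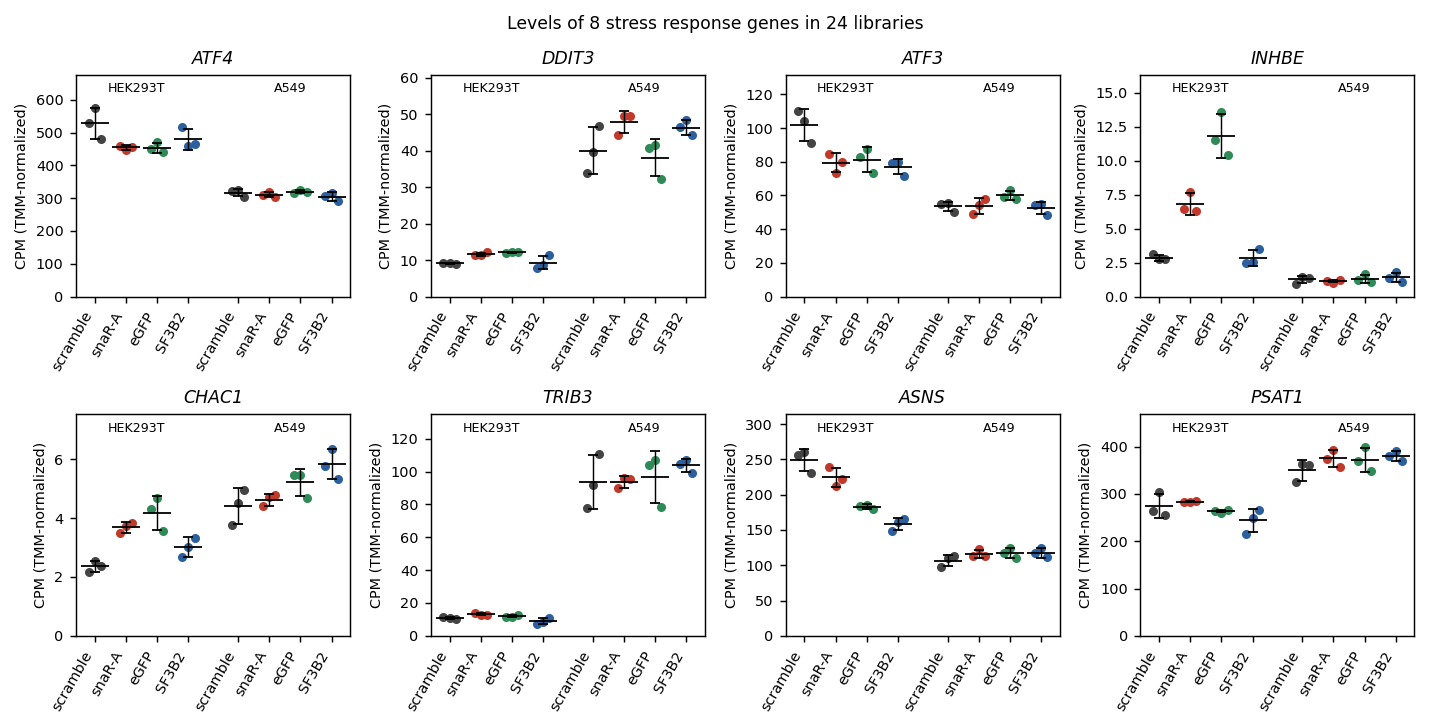
Levels of the 8 measured genes in CPM (vertical axis, linear, from 0) in each of the 24 libraries, grouped by line and plasmid. Points are libraries, horizontal lines group means and bars 1 SD (n = 3). INHBE stands at 10.4 to 13.6 CPM in HEK293T with eGFP and at 0.949 to 1.77 CPM in every A549 library, whereas DDIT3 and TRIB3 are higher in A549.

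In HEK293T, INHBE rose with snaR-A against scramble by 1.26 ± 0.10 (log2, SE, edgeR adjusted p = 0.000267), and this difference ranged from 1.16 to 1.32 when each of the 6 libraries was left out in turn. Of all genes tested in this comparison, 3.95% were called higher with a log2 fold change past 1. The differences of eGFP from scramble (2.06 ± 0.12), SF3B2 from eGFP (-2.08 ± 0.18) and SF3B2 from scramble (0.0062 ± 0.16) belong to the pattern for which INHBE was chosen and are given without a test. The snaR-A comparison shares its scramble libraries with that pattern and is no independent sign of it. In A549, INHBE differed by -0.15 ± 0.18 for snaR-A against scramble (edgeR adjusted p = 0.895), 0.063 ± 0.22 for eGFP against scramble (0.996), 0.12 ± 0.22 for SF3B2 against eGFP (0.797) and 0.18 ± 0.22 for SF3B2 against scramble (0.701). None of these 4 differences passed the test.

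ATF4, the central transcription factor of the pathway, was lower with snaR-A than with scramble in HEK293T. Its level in HEK293T was 529, 573 and 480.1 CPM with scramble, 460.0, 446 and 457 CPM with snaR-A, 449, 469.8 and 442 CPM with eGFP, and 517, 459.6 and 464 CPM with SF3B2. Every snaR-A and eGFP library lay below every scramble library, whereas SF3B2 overlapped scramble. The A549 libraries held 292 to 324 CPM, all below the HEK293T libraries. In HEK293T the log2 difference from scramble was -0.20 ± 0.064 with snaR-A (edgeR adjusted p = 0.0353), -0.20 with eGFP (0.0516) and -0.12 with SF3B2 (0.342). The snaR-A call was lost in 7 of 14 alternative fits. Among these were the fits without replicate 1 or 2 of scramble (0.0912 and 0.0633) and without replicate 1, 2 or 3 of snaR-A (0.0508, 0.0953 and 0.0705). Scaling by library size alone was another (-0.10, 0.188). With eGFP, ATF4 was called lower in 5 of 14 alternative fits, among them those without eGFP replicate 2 (0.0449) or scramble replicate 3 (0.0158). These are mRNA levels, and ATF4 protein is known to be set largely by translation, which was not measured.

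DDIT3, which encodes the transcription factor CHOP, was higher with snaR-A and with eGFP than with scramble. Its level in HEK293T was 9.18, 9.20 and 8.79 CPM with scramble, 11.3, 11.4 and 12.1 CPM with snaR-A, 12.1, 12.2 and 12.1 CPM with eGFP, and 7.88, 8.72 and 11.3 CPM with SF3B2. The snaR-A and eGFP libraries all lay above the scramble libraries, and SF3B2 spread across scramble, with replicate 3 as its highest library. DDIT3 rose by 0.37 ± 0.058 with snaR-A (log2, edgeR adjusted p = 0.00216) and by 0.43 ± 0.062 with eGFP (0.00118) against scramble, and differed by 0.058 with SF3B2 (0.76). A549 held more in every library, with 33.8, 39.6 and 46.6 CPM for scramble, 44.2, 49.5 and 49.5 CPM for snaR-A, 40.6, 41.4 and 32.3 CPM for eGFP, and 46.5, 48.3 and 44.1 CPM for SF3B2. In A549 the snaR-A and SF3B2 libraries lay above those of eGFP and overlapped those of scramble. The difference of SF3B2 from eGFP was 0.29 (edgeR adjusted p = 0.123), that of snaR-A from scramble 0.25 (0.794), and neither passed the test.

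ATF3, another stress-induced transcription factor, was lower with each plasmid than with scramble in HEK293T. Its level was 109.9, 104 and 91.1 CPM with scramble, 84.8, 73.5 and 80.0 CPM with snaR-A, 82.6, 87.9 and 73.1 CPM with eGFP, and 79.5, 79.8 and 71.8 CPM with SF3B2. No library of the 3 other groups reached the lowest scramble library. ATF3 fell with snaR-A (-0.35 ± 0.075, edgeR adjusted p = 0.00837), with eGFP (-0.31 ± 0.088, 0.021) and with SF3B2 (-0.38 ± 0.081, 0.0106). The eGFP call was lost without eGFP replicate 1 (0.0516), scramble replicate 1 (0.0729) or scramble replicate 2 (0.0602) and under scaling by library size alone (-0.20, 0.105), and the SF3B2 call without scramble replicate 1 (0.0511). In A549, ATF3 stood at 48.6 to 63.1 CPM, and its eGFP libraries (58.9, 63.1 and 58.0 CPM) lay above those of scramble (55.1, 55.3 and 50.2 CPM) with a difference of 0.17 that did not pass the test (edgeR adjusted p = 0.557).

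TRIB3, a pseudokinase that damps the response, showed smaller differences in HEK293T. Its level was 11.5, 10.9 and 10.5 CPM with scramble, 14.2, 13.0 and 12.7 CPM with snaR-A, 11.5, 11.6 and 12.8 CPM with eGFP, and 7.31, 8.56 and 10.9 CPM with SF3B2. The snaR-A libraries lay above the scramble libraries, and the eGFP and SF3B2 libraries overlapped them. TRIB3 rose with snaR-A by 0.28 ± 0.066 (edgeR adjusted p = 0.0107), a call that was lost when all 24 libraries shared one fit (0.115). Against scramble it differed by 0.13 with eGFP (0.182) and by -0.28 with SF3B2 (0.161). Without SF3B2 replicate 3, which carried more AKR1B10 than its group, the last difference was -0.45 and passed the test (0.0112). That replicate also held the least SF3B2 of its group (24022 CPM against 37686 and 28899 CPM). The part of either was not tested. A549 held 78.1 to 111 CPM, a range that its scramble libraries alone spanned.

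CHAC1, an enzyme that breaks down glutathione, rose with snaR-A and with eGFP. In HEK293T it stood at 2.17, 2.54 and 2.36 CPM with scramble, 3.48, 3.75 and 3.83 CPM with snaR-A, 4.31, 4.69 and 3.56 CPM with eGFP, and 2.67, 3.03 and 3.34 CPM with SF3B2. Every library of the other plasmids lay above every scramble library. CHAC1 rose with snaR-A by 0.66 ± 0.094 (edgeR adjusted p = 0.00142) and with eGFP by 0.84 ± 0.13 (0.00161), and differed by 0.38 ± 0.13 with SF3B2 (0.056). The SF3B2 difference was called in 4 of 14 alternative fits, among them the fit without SF3B2 replicate 1 (0.03). In A549 it stood at 3.76, 4.50 and 4.96 CPM with scramble, 4.40, 4.71 and 4.78 CPM with snaR-A, 5.47, 5.47 and 4.69 CPM with eGFP, and 5.79, 6.35 and 5.35 CPM with SF3B2. The SF3B2 libraries of A549 lay above those of scramble, but the difference of 0.42 did not pass the test with all libraries (edgeR adjusted p = 0.369). Without replicate 3 of A549 with scramble, the library with excess SF3B2, it was 0.50 and passed (0.0229).

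ASNS, the asparagine synthetase, fell with eGFP and with SF3B2 in HEK293T. Its level was 256, 260.4 and 231 CPM with scramble, 239, 212 and 223 CPM with snaR-A, 184, 186 and 179.8 CPM with eGFP, and 149, 161 and 166 CPM with SF3B2. Scramble and snaR-A overlapped, eGFP lay below both, and SF3B2 lay below eGFP. Its log2 difference from scramble was -0.43 ± 0.057 with eGFP (edgeR adjusted p = 0.000852), -0.63 ± 0.073 with SF3B2 (0.00149) and -0.14 with snaR-A (0.116). The snaR-A difference was called without scramble replicate 3 (0.0402) or snaR-A replicate 1 (0.0408). A549 held 97.2 to 125 CPM, and no difference between its groups passed the test. Of the words of 31 bases in the ASNS transcripts, 48.4% also occurred in other genes. The largest count, summed over transcripts, was in ENSG00000284707, so reads could be split between these genes. ENSG00000284707 was also lower with eGFP (-0.25, edgeR adjusted p = 0.00627) and with SF3B2 (-0.46, 0.0188), and differed by -0.090 with snaR-A (0.164).

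PSAT1, the aminotransferase of serine synthesis, did not pass the test in any HEK293T comparison of plasmids. It stood at 264, 304 and 255 CPM with scramble, 284, 283 and 284 CPM with snaR-A, 265, 261 and 266 CPM with eGFP, and 216, 249.9 and 266 CPM with SF3B2. All groups overlapped scramble, and the snaR-A libraries lay close together within its range. The difference of snaR-A from scramble was 0.058 (edgeR adjusted p = 0.512), and was called without scramble replicate 2 (0.13, 0.0376). In A549 PSAT1 stood at 325 to 399 CPM.

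In HEK293T, CHAC1 and DDIT3 rose and ATF3 fell both with snaR-A and with eGFP. For snaR-A against scramble in HEK293T, 36.3% of the genes tested were called (17.8% higher and 18.5% lower), and 6 of the 8 members were, 4 higher (INHBE, CHAC1, DDIT3 and TRIB3) and 2 lower (ATF3 and ATF4), with a median log2 difference of 0.17 against -0.0072 over all genes. The number called ranged from 5 to 7 when each library was left out. For eGFP against scramble, 48.8% of genes were called (22.9% higher and 25.8% lower) and 4 of the 7 members other than INHBE, with CHAC1 and DDIT3 higher and ASNS and ATF3 lower. Without eGFP replicate 3, which carried A549 markers, 46.5% of genes and again 4 of 7 members were called, 2 in each direction. For SF3B2 against scramble, 34.3% of genes were called (16.8% higher and 17.5% lower) and 2 of 7 members, both lower, ASNS and ATF3. Without scramble replicate 1 only ASNS was called, and without SF3B2 replicate 3 TRIB3 was called as well, beside 38.8% of genes. The 3 comparisons share the scramble libraries, so their values stand side by side and not as separate evidence.

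For SF3B2 against eGFP in HEK293T, only 0.172% of genes (39 of 22623) were called by edgeR, and 0 of the 7 members other than INHBE. Leaving out SF3B2 replicate 3 gave 1883 calls by edgeR, and leaving out any other single library gave between 1 and 13. DESeq2 called 2079 genes, and 3 of the members, CHAC1, ASNS and TRIB3. At an unadjusted p under 0.05, edgeR gave 4904 of all 22623 genes and 4 of the 7 members, all lower with SF3B2. These were ASNS (-0.22), CHAC1 (-0.49 ± 0.15), DDIT3 (-0.39) and TRIB3 (-0.43), with edgeR adjusted p of 0.141, 0.152, 0.179 and 0.179. Without SF3B2 replicate 3, 8.09% of genes were called, among them DDIT3 (-0.53, edgeR adjusted p = 0.0375) and TRIB3 (-0.58, 0.0412). Without replicate 3 of both groups, an alternative chosen after seeing the data, DDIT3 was the 1 member called (-0.55, 0.0483). ATF4 (0.069), ATF3 (-0.089) and PSAT1 (-0.13) were not called.

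**Figure D2:**
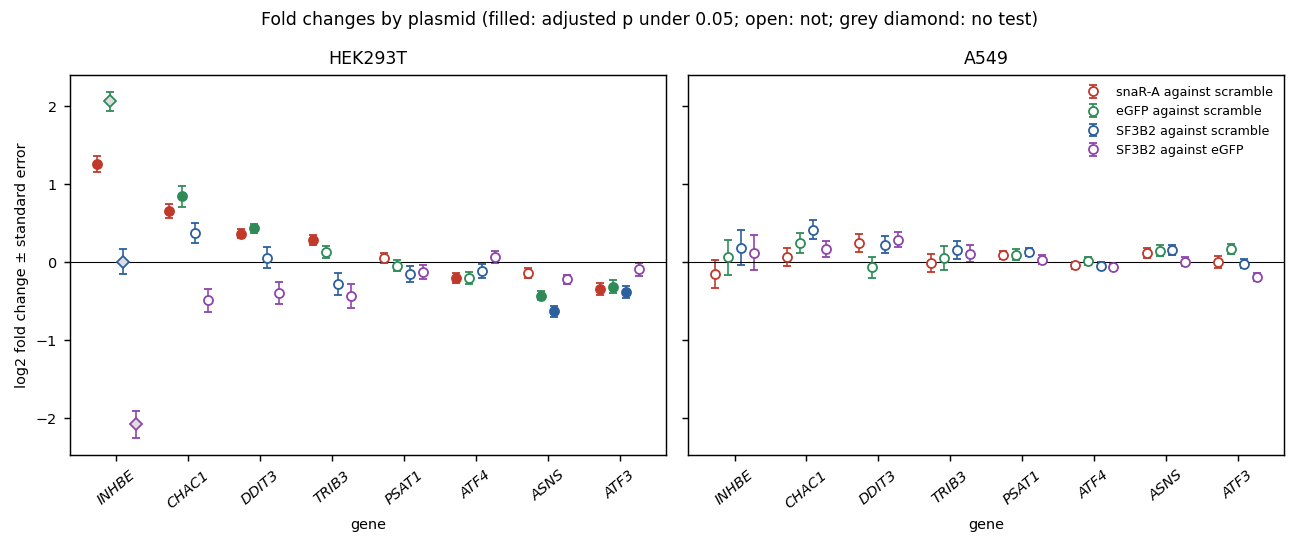
Log2 differences (vertical axes) of the 8 genes (horizontal axes) in 4 comparisons of plasmids, in HEK293T on the left and A549 on the right, with bars for 1 standard error (6 libraries per comparison). Filled points passed the test, open circles did not and grey diamonds were not tested. Against scramble in HEK293T, CHAC1 stands at 0.66 with snaR-A and 0.84 with eGFP while ATF3 stands at -0.35 and -0.31, and no point is filled in A549.

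In A549 none of the 8 members passed edgeR's test in the 4 comparisons of plasmids with all libraries. An unadjusted p under 0.05 in edgeR was reached by 1329 of 21662 genes for snaR-A and 1437 of 21578 for eGFP, each against scramble. For SF3B2 it was reached by 4933 of 21581 genes against eGFP and by 2801 of 21461 against scramble. For snaR-A against scramble 0.0185% of genes were called and 0 of 8 members, with 0 at an unadjusted p under 0.05 by edgeR and 0 by DESeq2. For eGFP against scramble it was 1.49% of genes and 0 of 8 members, with 1 (ATF3) at an unadjusted p under 0.05 and 0 by DESeq2. For SF3B2 against eGFP it was 7.02% of genes and 0 of 8 members. Here DDIT3 (0.29, adjusted p = 0.123) and ATF3 (-0.19, adjusted p = 0.0899) had an unadjusted p under 0.05 in edgeR, DESeq2 called 2 members, and both genes were called without eGFP replicate 3 (DDIT3 at 0.18 and ATF3 at -0.21, with 14.7% of genes). For SF3B2 against scramble it was 0.233% of genes and 0 of 8 members, with 3 (CHAC1, ASNS and PSAT1) at an unadjusted p under 0.05 and 0 by DESeq2. Without replicate 3 of scramble, the library with excess SF3B2, 21.9% of genes and 3 members were called in that comparison, all higher with SF3B2: DDIT3 (0.33, edgeR adjusted p = 0.015), TRIB3 (0.29, 0.0226) and CHAC1 (0.50).

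Differences between the lines in their response were tested with an interaction term over 12 libraries, where a positive value means a higher log2 difference in HEK293T than in A549. For snaR-A against scramble, 11.4% of genes were called (6.64% higher and 4.79% lower), and 2 of 8 members, both higher: INHBE (1.43 ± 0.22, edgeR adjusted p = 0.00307) and CHAC1 (0.60 ± 0.16, 0.0325). INHBE was called with each library left out, the highest adjusted p being 0.0161, whereas CHAC1 lost its call in several such fits, with values of 0.48 to 0.68 and an adjusted p of up to 0.111. TRIB3 (0.30, 0.194), ATF3 (-0.34, 0.0816) and ASNS (-0.24, 0.113) did not pass with all libraries. They were called in 1, 3 and 4 of 19 alternatives, in that order. For eGFP against scramble, 26.4% of genes were called (10.8% higher and 15.6% lower), and 3 of 7 members, all lower: ASNS (-0.64 ± 0.098, edgeR adjusted p = 0.00106), ATF3 (-0.55 ± 0.11, 0.0049) and ATF4 (-0.29 ± 0.096, 0.0483). The ATF4 call was lost in nearly all fits that left out a library, with an adjusted p of up to 0.122, and CHAC1 (0.53, 0.0595) and DDIT3 (0.43, 0.0714) missed the threshold. For SF3B2 against eGFP, 6.1% of genes were called and 0 of 7 members. An unadjusted p under 0.05 in edgeR was reached by 6694 of 24714 genes and by 4 members. These were DDIT3 (-0.66, edgeR adjusted p = 0.057), CHAC1 (-0.63, 0.0695), TRIB3 (-0.52, 0.137) and ASNS (-0.20, 0.18). For INHBE, the interaction was 1.94 ± 0.26 for eGFP and -2.17 ± 0.32 for SF3B2 against eGFP, without a test.

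With the scramble plasmid, all 8 members differed between the lines, beside 77.5% of all genes tested (39.3% higher and 38.2% lower in HEK293T). INHBE (1.23 ± 0.18, edgeR adjusted p = 0.000313), ASNS (1.27 ± 0.076, 9.66e-07), ATF3 (0.97 ± 0.079, 6.65e-06) and ATF4 (0.78 ± 0.080, 3.03e-05) were higher in HEK293T. TRIB3 (-3.04 ± 0.13, 1.02e-07), DDIT3 (-2.10 ± 0.11, 5.51e-07), CHAC1 (-0.86 ± 0.14, 0.000661) and PSAT1 (-0.30 ± 0.083, 0.00958) were lower. The PSAT1 call was lost without HEK293T scramble replicate 1 (0.0502), and its sign turned to 0.091 under scaling by library size alone. Without A549 scramble replicate 3 the split was again 4 higher and 4 lower, beside 76.8% of genes. INHBE, ASNS and ATF3 were thus ordered between the lines as ATF4 mRNA was, and TRIB3, DDIT3, CHAC1 and PSAT1 in the opposite way.

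The other genes of the pathway were taken as 6 lists of 84 tested genes in all, with the activin family as a list of its own. In HEK293T with snaR-A against scramble, 23 of the 84 rose and 20 fell (51.2%, against 36.3% of all genes). With eGFP, 23 rose and 28 fell (60.7% against 48.8%), and with SF3B2, 17 rose and 18 fell (41.7% against 34.3%). For SF3B2 against eGFP 0 of 84 were called. In A549, 0 of 83 were called for snaR-A, 1 for eGFP and 0 for SF3B2 against scramble, and 2 rose and 10 fell for SF3B2 against eGFP.

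Among 9 amino acid transporters, 5 rose and 1 fell with snaR-A (66.7% called), 3 rose and 2 fell with eGFP (55.6%), and 3 rose and 2 fell with SF3B2 (55.6%), each against scramble in HEK293T. Over all genes, 36.3% were called with snaR-A, 48.8% with eGFP and 34.3% with SF3B2. SLC3A2, the shared heavy chain of several transporters, rose by 0.54 with snaR-A (edgeR adjusted p = 0.000283) and by 0.79 with eGFP (0.000141). SLC7A11, its partner in the cystine transporter, rose by 0.48 with snaR-A (0.0011), 0.71 with eGFP (0.00727) and 0.60 with SF3B2 (0.00212), and its eGFP value was 0.52 without the eGFP replicate that carried A549 markers. The neutral amino acid transporter SLC38A2 fell with snaR-A (-0.23, 0.00532) and with eGFP (-0.31, 0.0495), the cationic amino acid transporter SLC7A1 with eGFP (-0.15, 0.036), and SLC43A1 (-0.28, 0.0409) and SLC1A5 (-0.26, 0.0378) with SF3B2. Of 13 genes of tRNA charging, 5 rose and 0 fell with snaR-A (38.5%), 5 rose and 1 fell with eGFP (46.2%), and 4 rose and 1 fell with SF3B2 (38.5%), shares near those of all genes. CARS1, which charges tRNA with cysteine, rose by 0.53 with snaR-A (0.00045), 0.72 with eGFP (0.000194) and 0.24 with SF3B2 (0.022), and WARS1, its counterpart for tryptophan, by 0.41 with snaR-A and 0.46 with eGFP. AARS1, the counterpart for alanine, was the 1 gene of the list that fell, at -0.25 with eGFP (0.00433) and -0.20 with SF3B2 (0.0438). Of 11 genes of amino acid synthesis, 2 rose and 1 fell with snaR-A (27.3%), 2 rose and 4 fell with eGFP (54.5%), and 0 rose and 2 fell with SF3B2 (18.2%). The shares with snaR-A and SF3B2 lay below those of all genes. CTH, which makes cysteine from cystathionine, rose by 0.23 and 0.33 with snaR-A and eGFP, while MTHFD2, a mitochondrial enzyme of folate metabolism, fell with all of them (-0.27, -0.46 and -0.49 with snaR-A, eGFP and SF3B2).

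Other targets of ATF4 or CHOP moved in both directions, with 5 of 17 higher and 6 lower with snaR-A (64.7% called), 6 higher and 7 lower with eGFP (76.5%), and 4 higher and 4 lower with SF3B2 (47.1%). The shares of all genes called were 36.3%, 48.8% and 34.3% with the same plasmids. ATF5, a transcription factor related to ATF4, rose by 0.49 with snaR-A (edgeR adjusted p = 0.00167), 0.98 with eGFP (0.000448) and 0.80 with SF3B2 (0.00223). NUPR1, a small stress-induced nuclear protein, rose by 0.56 with snaR-A (0.00365), and PPP1R15A, a phosphatase subunit that reverses eIF2 phosphorylation, by 0.74 with eGFP (0.000747). DDIT4, an inhibitor of mTORC1, fell with all of them, at -0.66 with snaR-A (0.00124), -1.21 with eGFP (0.00011) and -0.95 with SF3B2 (0.000867), and so did VLDLR, a lipoprotein receptor, at -0.58, -0.71 and -0.42. GDF15, a secreted stress hormone, was named after its values were seen, since its mean level in these HEK293T comparisons fell below the limit for named genes. It stood at 0.580, 0.580 and 0.444 CPM with scramble, 1.05, 1.29 and 1.01 CPM with snaR-A, 1.57, 2.0 and 3.80 CPM with eGFP, and 2.40, 2.71 and 2.29 CPM with SF3B2 in HEK293T, and at 66.9 to 85.1 CPM in A549. All the HEK293T libraries of the other plasmids lay above those of scramble, with differences of 1.07 for snaR-A (0.00165), 2.21 for eGFP (0.00144) and 2.22 for SF3B2. The eGFP difference was 1.76 without the replicate that carried A549 markers, in which GDF15 was highest. FGF21, a liver hormone also named after its values were seen, rose by 1.39 with snaR-A (0.00219) and 1.74 with eGFP (0.000843) at 0.0988 to 0.440 CPM.

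**Figure D3:**
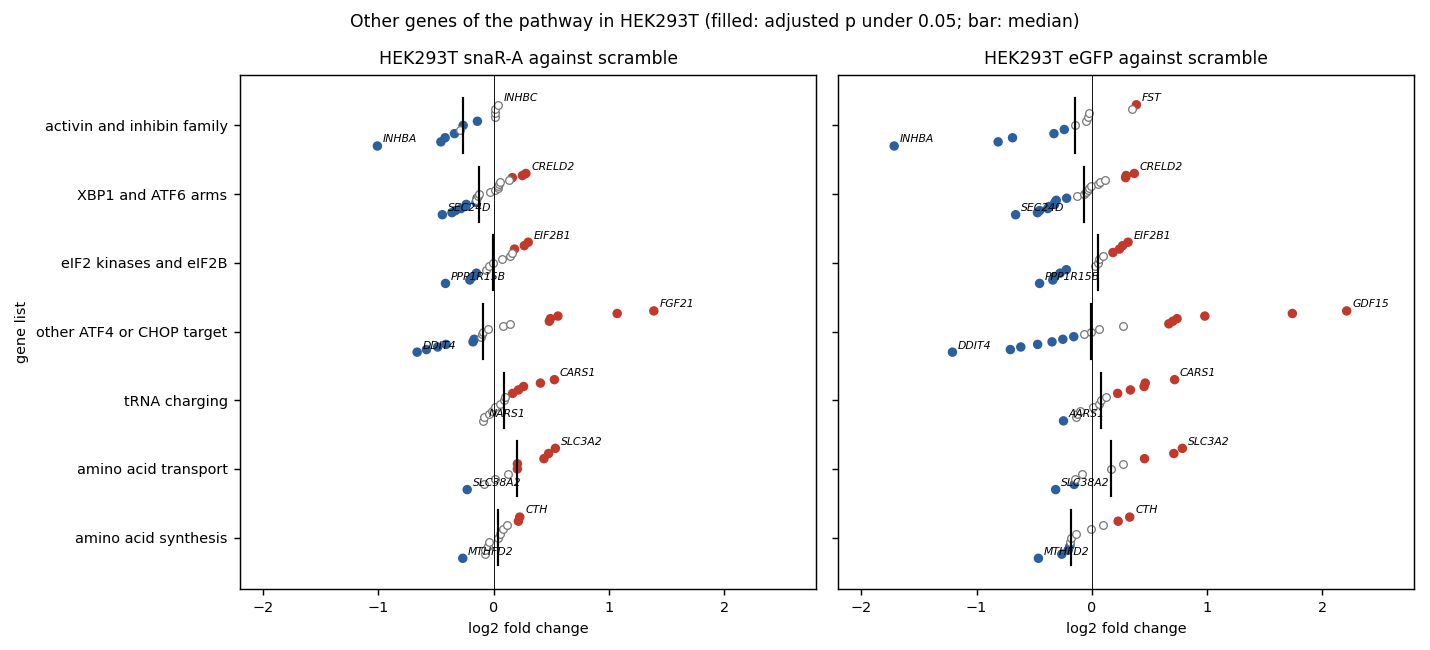
Log2 differences from scramble in HEK293T (horizontal axes) for the genes of the pathway lists and the activin family (vertical axis), for snaR-A on the left and eGFP on the right. Each point is a gene, filled where the adjusted p is under 0.05, and the vertical bar of each list is its median. INHBA stands at -1.01 and -1.71, and CARS1 at 0.53 and 0.72.

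Upstream of ATF4, 3 of 13 genes for eIF2, its kinases and its exchange factor eIF2B rose and 4 fell with snaR-A (53.8% called), 4 rose and 5 fell with eGFP (69.2%), and 3 rose and 4 fell with SF3B2 (53.8%). Over all genes the shares called were 36.3% with snaR-A, 48.8% with eGFP and 34.3% with SF3B2. EIF2B1, a subunit of the exchange factor, rose by 0.30 with snaR-A and 0.32 with eGFP, and PPP1R15B, the constant phosphatase subunit, fell, at -0.42, -0.45 and -0.36 with snaR-A, eGFP and SF3B2. In A549 the single gene called for eGFP against scramble was EIF2AK2, the kinase PKR that senses double-stranded RNA. It stood at 1005 to 1074 CPM with eGFP and 338 to 501 CPM with scramble (1.31 ± 0.14, edgeR adjusted p = 0.00343), and was lower with SF3B2 than with eGFP (-1.12 ± 0.044, 6.99e-05). In HEK293T, EIF2AK2 rose with SF3B2 against scramble (0.53 ± 0.11, edgeR adjusted p = 0.0115). Its line difference was -1.27 for eGFP against scramble (0.000962) and 1.56 for SF3B2 against eGFP (0.000911). Of 21 genes of the XBP1 and ATF6 arms of the unfolded protein response, 3 rose and 8 fell with snaR-A (52.4%), 3 rose and 9 fell with eGFP (57.1%), and 3 rose and 5 fell with SF3B2 (38.1%). The shares of all genes to set beside these are again 36.3%, 48.8% and 34.3%. SEC24D, a coat protein of secretory vesicles, fell, at -0.45, -0.66 and -0.47 with the same plasmids. CRELD2 rose by 0.28 with snaR-A and 0.37 with eGFP, and ATF6 by 0.25 with snaR-A and 0.40 with SF3B2. DNAJB11 rose by 0.30 with eGFP and 0.44 with SF3B2.

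INHBA, which encodes the activin beta A chain, was lower with every other plasmid than with scramble in HEK293T. Of 11 genes of the activin and inhibin family, 0 rose and 6 fell with snaR-A, 1 rose and 5 fell with eGFP, and 0 rose and 5 fell with SF3B2. The shares called were 54.5%, 54.5% and 45.5%, against 36.3%, 48.8% and 34.3% of all genes, of which 18.5%, 25.8% and 17.5% were lower. INHBA stood at 3.85, 3.14 and 3.29 CPM with scramble, 1.66, 1.40 and 2.01 CPM with snaR-A, 0.947, 1.10 and 1.05 CPM with eGFP, and 2.22, 1.65 and 1.49 CPM with SF3B2 in HEK293T, and at 0.288 to 0.782 CPM in A549. Its groups with other plasmids all lay below scramble, and eGFP lay lowest. The log2 difference of INHBA from scramble was -1.01 with snaR-A (edgeR adjusted p = 0.00153), -1.71 with eGFP (0.00012) and -0.92 with SF3B2 (0.00715), and that of INHBB, which encodes the beta B chain, was -0.46 with snaR-A (0.00607).

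INHBE and DDIT3 are near neighbours on chromosome 12, and the 8 other genes between and around them were compared. Of these, 1 rose and 2 fell with snaR-A (37.5%, near the 36.3% of all genes), 2 rose and 3 fell with eGFP (62.5% against 48.8%), and 2 rose and 2 fell with SF3B2 (50% against 34.3%). INHBC, the activin gene that ends 0.3 kb before INHBE begins, differed by 0.35 with eGFP (edgeR adjusted p = 0.229). MARS1, which charges tRNA with methionine and is itself part of the pathway, rose by 0.21 with snaR-A (0.00603), 0.34 with eGFP (0.00257) and 0.22 with SF3B2. R3HDM2, on the other side of INHBC, fell, at -0.44, -0.55 and -0.41 with snaR-A, eGFP and SF3B2. MARS1 and DDIT3 share 982 bases on opposite strands, and whether the counting used strand is not stated, so their reads may not be fully separate. GLI1 begins 505 bases after the end of INHBE. ARHGAP9, a gene of low level named after its values were seen, rose by 1.37 with eGFP (edgeR adjusted p = 0.00575), where it stood at 0.153 to 0.224 CPM.

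**Figure D4:**
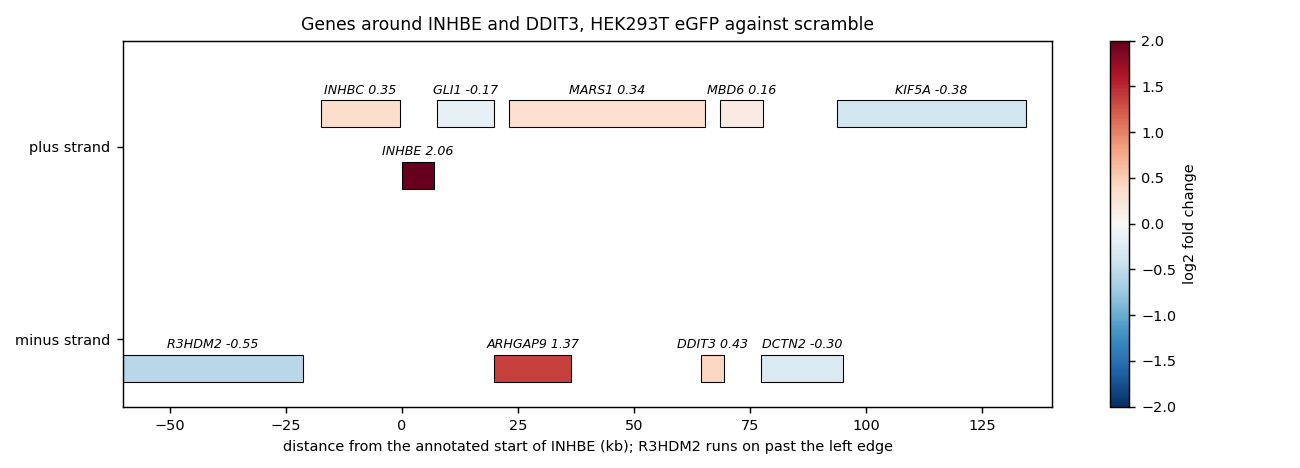
Map of the genes around INHBE and DDIT3 by strand (horizontal axis, distance from the annotated start of INHBE in kb), coloured by the log2 difference of eGFP from scramble in HEK293T, which is printed above each gene. The colour scale ends at 2, and INHBE at 2.06 takes its last colour. DDIT3, whose first base is 69.4 kb away, stands at 0.43, MARS1 between them at 0.34 and R3HDM2 at -0.55.

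Genes were ranked by how closely their log2 level followed that of INHBE, as Pearson's r over the 12 libraries of a line, which share the 4 plasmid groups. Among 12606 HEK293T genes the 5 most alike were ZNF586 (0.983), ZNF202 (0.979), MSANTD7 (0.974), INSC (0.973) and ZNF620 (0.971). This order follows the HEK293T pattern for which INHBE was chosen. The r values of the stress genes in HEK293T rest on the same libraries and are no independent sign of that pattern. ZNF202 averaged 15.7 CPM with scramble, 21.0 with snaR-A, 23.4 with eGFP and 15.6 with SF3B2. Of the stress genes, DDIT3 (0.889) and CHAC1 (0.875) followed INHBE more closely than 98.9% and 98.4% of genes. TRIB3 (0.638), PSAT1 (0.289), ASNS (-0.0433), ATF3 (-0.318) and ATF4 (-0.625) followed it less closely. Among 11896 A549 genes, where INHBE varied little, the 5 most alike were YWHAB (0.817), FRAT2 (0.808), SND1 (0.805), ESS2 (0.805) and HPS1 (0.795), and TRIB3 (0.697) and CHAC1 (0.694) stood above 99.6% and 99.5% of genes. ASNS (0.611) and PSAT1 (0.579) stood above 97.9% and 96.5% of A549 genes. DDIT3 (0.365) stood above 80%, ATF3 (0.244) above 70.1% and ATF4 (0.0892) above 56.4%. These values describe the libraries and carry no test.

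**Figure D5:**
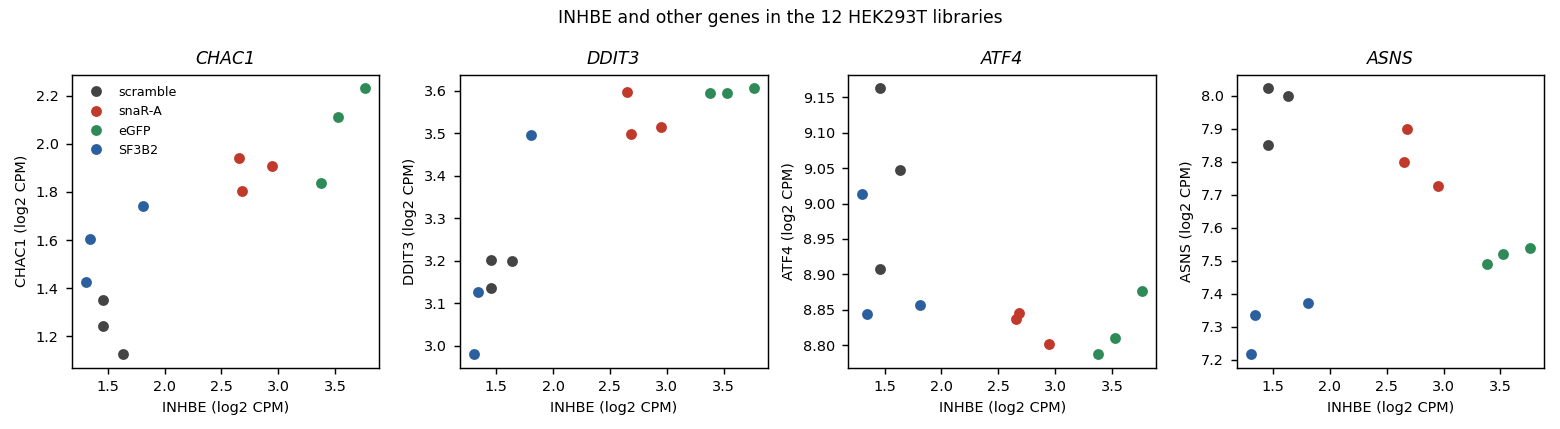
Level of INHBE (horizontal axes, log2 CPM) against the levels of CHAC1, DDIT3, ATF4 and ASNS (vertical axes, log2 CPM, each with its own range) in the 12 HEK293T libraries, coloured by plasmid. DDIT3 and CHAC1 follow INHBE (r of 0.889 and 0.875), ATF4 runs the other way (-0.625), and the mean of ASNS is lowest with SF3B2 and highest with scramble, the groups in which INHBE is low. The libraries include those on which INHBE was chosen, and r carries no test.

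Some of these genes share sequence with others in the transcriptome, which could move reads between them. Of the words of 31 bases in a gene's transcripts, 26.4% of those of ATF4 and 15.3% of those of PSAT1 occurred elsewhere. For ATF4 the largest count, summed over transcripts, was in the pseudogene ATF4P4, which stood at 0.004 to 0.046 CPM. The share was 5.43% for DDIT3 and 2.39% for INHBE, and 0 for TRIB3, CHAC1 and ATF3.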

How the data were processed

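The deposited table held estimated counts per gene, which the authors made per library. The submitters' notes name Trim Galore and Salmon and the build hg38; the transcriptome release and the tool that summed transcripts to genes are not given in the sources used here. Of the values 51% were not whole, and all were rounded. Symbols of 54903 of 60236 Ensembl IDs came from GENCODE 44 (GRCh38), and promoters from RefSeq (GRCh38.p14).

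Each comparison was fitted on its own 6 libraries (12 for an interaction) in R 4.3.3 with edgeR 4.0.16: filterByExpr, TMM scaling and the quasi-likelihood F test. Adjusted p-values followed Benjamini and Hochberg over all genes tested, with a threshold of 0.05. No covariate was used. Levels are CPM with TMM factors over all 24 libraries, and log2 levels used a prior count of 2. DESeq2 1.42.0, edgeR's exact test, other scalings and filters, a fit over all libraries, a replicate block and the omission of each library were alternatives. Python 3.11.15, pandas 2.3.3, numpy 2.4.6 and matplotlib 3.10.9 served for sequences and figures.

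The members and lists were chosen with earlier results of these data known. Genes named from a list were at most 2 in each direction with an adjusted p under 0.05 and a mean log2 CPM of 1 or more. The 5 most alike genes per line were also named. Others are marked as named after their values were seen, and these (GDF15, FGF21 and ARHGAP9) were named for rises only. Replicate numbers did not pair the libraries: over 18 same-numbered pairs per line, the deviations from group means had a median correlation of -0.0106 in HEK293T (-0.0522 to 0.0562) and -0.000914 in A549 (-0.155 to 0.135). No libraries were copies, since the variance between replicates was at least 18.1 times the counting variance in all 24 pairs. On simulated counts of the HEK293T snaR-A comparison, edgeR recovered 200 of 200 genes changed by a log2 fold of 1 with 7 false calls (DESeq2 20), and the simulated interaction 184 of 200 with 10. Every simulated gene had the same spread beyond counting noise, only genes of higher count were changed, and no library stood apart. These error rates need not hold for the real libraries.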

Additional observations from a re-analysis of the deposited data

Results flagged for a closer look

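In 5 results the log2 response to a plasmid differed between HEK293T and A549 by an interaction test in edgeR over 12 libraries. Against scramble, the response to snaR-A was higher in HEK293T for INHBE, by 1.43 ± 0.22 (adjusted p = 0.00307), and for CHAC1, by 0.60 ± 0.16 (adjusted p = 0.0325). The response to eGFP was lower in HEK293T for ASNS, by -0.64 ± 0.098 (adjusted p = 0.00106), for ATF3, by -0.55 ± 0.11 (adjusted p = 0.0049), and for ATF4, by -0.29 ± 0.096 (adjusted p = 0.0483). The CHAC1 call was lost in 10 of 19 alternatives and the ATF4 call in 16 of 19. Line and medium cannot be told apart in these tests. Groups of 3 libraries were too small to test for a library that lies far from the others.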

How the results depend on the processing

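Scaling by library size alone turned the sign of PSAT1 for eGFP against scramble in HEK293T (0.062), ATF4 for SF3B2 against eGFP (-0.094), DDIT3 for SF3B2 against scramble (-0.0055), ATF4 and TRIB3 for snaR-A against scramble in A549 (0.032 and 0.055), ASNS for SF3B2 against eGFP in A549 (-0.014), ATF3 for SF3B2 against scramble in A549 (0.0018), PSAT1 between the lines (0.091) and the line differences of ATF4 and ATF3 for SF3B2 against eGFP (-0.015 and -0.048). PSAT1 between the lines was the only one of these that had been called. That scaling moved the median of all genes by 0.105, -0.159, 0.397, 0.134 and -0.166 in HEK293T eGFP against scramble, HEK293T SF3B2 against eGFP, HEK293T against A549, and the line differences of eGFP and SF3B2. ASNS for SF3B2 against eGFP in A549 was also negative with DESeq2 and with DESeq2's size factors (-0.0014 each) and without a filter (-0.00013).

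With the replicate block, TRIB3 and ATF3 for snaR-A against scramble in A549 turned to 0.0085 and -0.0017. The block lowered the members called from 6 to 5 for HEK293T snaR-A and from 3 to 2 for the line difference of eGFP, changed no other count of members, and lowered the genes called for HEK293T SF3B2 against eGFP from 39 to 1. The numbers did not pair the libraries.

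Leaving out each library in turn, signs turned for PSAT1 in HEK293T eGFP against scramble (-0.10 to 0.023), DDIT3 in HEK293T SF3B2 against scramble (-0.10 to 0.18), CHAC1 (-0.031 to 0.16), TRIB3 (-0.11 to 0.14) and ATF3 (-0.066 to 0.069) in A549 snaR-A against scramble, TRIB3 (-0.055 to 0.19), INHBE (-0.13 to 0.20), DDIT3 (-0.16 to 0.060) and ATF4 (-0.013 to 0.042) in A549 eGFP against scramble, INHBE (-0.071 to 0.31), TRIB3 (-0.019 to 0.19), ASNS (-0.038 to 0.045) and PSAT1 (-0.014 to 0.084) in A549 SF3B2 against eGFP, ATF3 (-0.074 to 0.027) and INHBE (-0.019 to 0.34) in A549 SF3B2 against scramble, DDIT3 (-0.021 to 0.21) and PSAT1 (-0.13 to 0.0047) in the line difference of snaR-A, and TRIB3 (-0.072 to 0.18) in that of eGFP. INHBE in HEK293T SF3B2 against scramble, given without a test, ranged from -0.17 to 0.11. None of these had been called with all libraries.

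Counts of members called moved as follows, and the cause was not tested. For HEK293T SF3B2 against eGFP 0 became 3 with DESeq2, 2 with all libraries in one fit, 1 without replicate 3 of both groups (chosen after seeing the data) and 0 to 2 leaving out each library. HEK293T SF3B2 against scramble ranged from 1 to 3 and A549 SF3B2 against scramble from 0 to 3 leaving out each library. A549 SF3B2 against eGFP gave 2 with DESeq2 and 0 to 2 leaving out each library. The line difference of snaR-A gave 4 with DESeq2, 1 without a filter and 1 to 4 leaving out each library, that of eGFP 5 with DESeq2 and with all libraries, and that of SF3B2 against eGFP 2 with DESeq2, with at least 10 counts and with all libraries, 3 without replicate 3 of both HEK293T groups (chosen after seeing the data) and 0 to 3 leaving out each library. Over all genes, HEK293T SF3B2 against eGFP gave 39 calls against 644 with the exact test, 2079 with DESeq2, 126 with library size alone, 109 with at least 10 counts and 2075 with all libraries. A549 eGFP against scramble gave 322 against 532 with DESeq2, A549 SF3B2 against eGFP 1516 against 2863, the line difference of snaR-A 2831 against 4406 and that of SF3B2 against eGFP 1507 against 4006. A549 SF3B2 against scramble gave 50, and 0 to 4825 leaving out each library. INHBE had 180 to 359 counts per A549 library and 559 to 3547 per HEK293T library, and the part of depth in its error was not tested.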
